A study of Homo sapiens with 24 samples.

Results

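The 8 cell-cycle cyclin genes CCND2, CCND3, CCNE1, CCNE2, CCNA2, CCNB1, CCNB2 and CCNF were followed in synchronized K562 cells. They were taken from a list of symbols and matched to the Ensembl identifiers of the expression table. All 8 were among its 12285 genes and among the 12253 with a mean of at least 1 FPKM (fragments per kilobase of transcript, scaled to the sequenced fragments of the library). K562 is an established suspension line from a human chronic myeloid leukaemia, with features of the red-cell lineage. The cells were grown in RPMI with 10% BCS (bovine calf serum) and P/S, and a synchronous population was obtained by centrifugal elutriation, which separates cells by size. RNA from 1 sample was sequenced at each of 24 time points, every 2 h from 0 h to 46 h, without replicates, untreated controls or a second line. The study was about STRIPEs, that is, libraries in which many transcripts shift together against the libraries just before and after. It placed them at 16 h and 18 h in this course, with a mild one at 32 h.

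Cyclins are the regulatory subunits of cyclin-dependent kinases (CDKs). In the textbook order, D-type cyclins act in G1, E-type cyclins at the entry into S phase, cyclin A2 in S phase and G2, and B-type cyclins at the entry into mitosis. Cyclin F activates no CDK but is the substrate-binding part of a ubiquitin ligase, and the cycle of most cyclin proteins is shaped by both transcription and destruction, of which only the transcript was measured here.

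All 14 erythroid marker genes were in the table, with a summed level of 4343 to 9382 FPKM, among them the globins HBG1 and HBG2, whose near-identical sequences make their single values uncertain. Of 7 fibroblast markers 3 were in the table (COL1A2, VIM and FN1, summed 111 to 189 FPKM), and VIM, which many cultured lines express, gave most of this. Of the lymphoid markers, CD3D had 4.20 to 12.9 FPKM and PTPRC, which many blood cells express, 14.3 to 44.6 FPKM. The summed FPKM of the libraries was 456791 to 520382, and up to 591309 when 16 h and 18 h were included. Read counts were not used, so the depth is unknown. No measure of DNA content or cell division was analysed here, so hours after elutriation are not tied to a phase.

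The upstream sequences of CCNA2, CCNB1, CCNB2 and CCNE1 are shown because the first 3 peaked late in the first day and CCNE1 early, as described below. Transcription of late cell-cycle genes is known to depend on CCAAT boxes and on a short element near the start called CHR, which binds the DREAM and MuvB complexes. Each line gives the 150 bases before a RefSeq transcript start (GRCh38.p14), with CCAAT and the 4 searched CHR words TTTGAA and CTTGAA and TTCGAA and TTTAAA, on either strand, in capitals.
CCNA2 (chr4:121823884-121824033, minus strand): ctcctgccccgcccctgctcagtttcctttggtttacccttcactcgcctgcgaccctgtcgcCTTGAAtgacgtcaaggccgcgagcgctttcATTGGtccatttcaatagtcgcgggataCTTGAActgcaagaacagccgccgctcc
CCNB1 (chr5:69167000-69167149, plus strand): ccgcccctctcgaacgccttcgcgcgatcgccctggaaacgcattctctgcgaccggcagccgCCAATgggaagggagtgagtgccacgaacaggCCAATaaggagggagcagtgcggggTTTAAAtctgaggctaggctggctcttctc
CCNB2 (chr15:59104996-59105145, plus strand): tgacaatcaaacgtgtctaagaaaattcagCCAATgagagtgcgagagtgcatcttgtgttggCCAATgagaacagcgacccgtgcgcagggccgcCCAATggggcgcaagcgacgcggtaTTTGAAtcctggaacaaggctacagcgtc
CCNE1 (chr19:29811841-29811990, plus strand): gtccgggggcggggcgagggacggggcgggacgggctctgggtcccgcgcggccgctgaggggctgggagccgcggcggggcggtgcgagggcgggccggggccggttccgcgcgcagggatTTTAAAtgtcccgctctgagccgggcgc

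In all 4 sequences a CHR word lay close to the start, at 28 to 23 bases upstream in CCNA2 and CCNE1, 30 to 25 in CCNB1 and 29 to 24 in CCNB2. The TTTAAA of CCNB1 and CCNE1 is also a word that a TATA-like element can hold, and the letters alone do not tell these apart. A CCAAT box followed at 56 to 52 bases in CCNA2, 55 to 51 in CCNB1 and 54 to 50 in CCNB2, and CCNE1 had none in the 250 bases searched. CCNA2 had a further CTTGAA at 87 to 82 bases. CCNB1 and CCNB2 had a further CCAAT box at 87 to 83 bases, and CCNB2 one more at 120 to 116 and one at 244 to 240. CCNF, on chromosome 16, had 4 CCAAT boxes within 250 bases, of which the nearest lay at 106 to 102, and a TTTGAA at 85 to 80. CCND3 had 3 windows with no CHR word in any of them and at most 1 CCAAT box. Of all 35116 RefSeq windows of the same length, 32.01% held a CCAAT box, 29.09% a CHR word and 2.842% at least 2 CCAAT boxes with a CHR word, a combination found in CCNB1, CCNB2 and CCNF. Words for E2F binding were also searched, and no cyclin window held one, against 2.788% of all windows. CCND2 and CCNE2 were not in the table of windows. These matches are descriptions of letters, not of bound sites.

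The FPKM scale is per length, so levels can be set side by side. Over the 24 time points CCNB1 was highest with a mean of 155 ± 44.6 FPKM (SD over time points), followed by CCND3 (122 ± 25.04) and CCNA2 (112 ± 23.2). CCNB2 had 65.2 ± 11.7 FPKM. CCNE1 (33.3 ± 5.10), CCND2 (31.8 ± 6.27), CCNF (22.7 ± 4.48) and CCNE2 (22.0 ± 6.03) were lower, but each exceeded the median of all genes, 13.7 FPKM. The neighbours CCND3 and CCNA2, CCNE1 and CCND2, and CCNF and CCNE2 differed by less than the SD of either gene. CCNB1 and CCND3 differed by less than the SD of CCNB1 but by more than that of CCND3. This SD is the swing of a gene over the course, not an error of its level. On the second day CCND3 had at least 119 FPKM and CCNA2 at most 116. On the first day CCNA2 was the higher at 0 h, 16 h, 18 h, 20 h and 22 h.

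**Figure D1:**
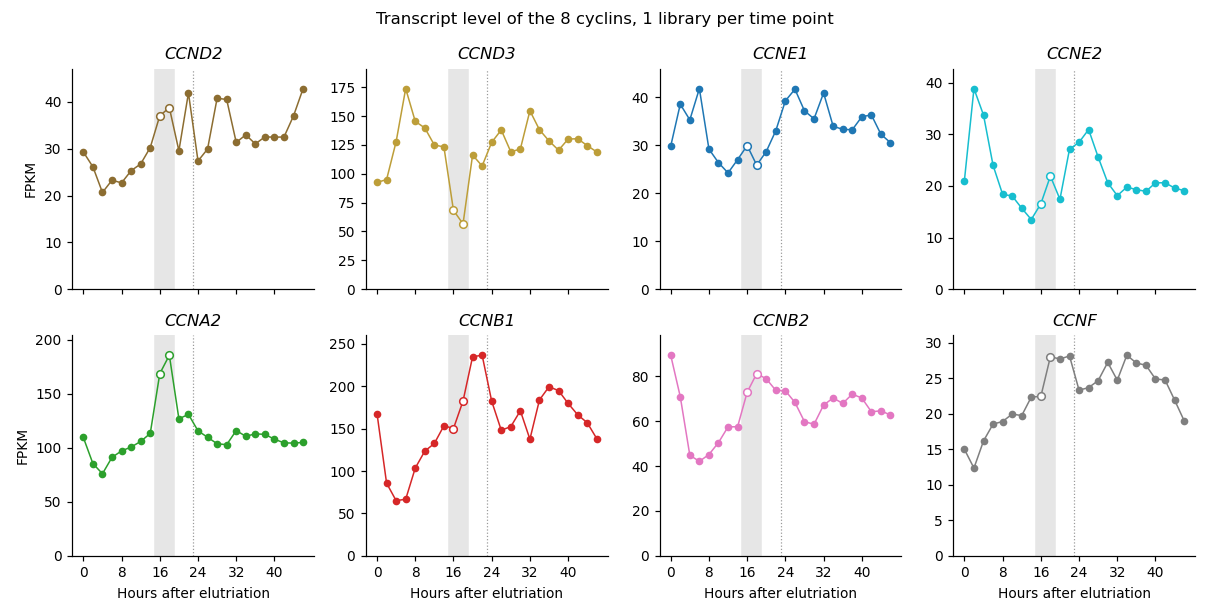
Transcript level in FPKM (y axis, from 0) of each cyclin gene against hours after elutriation (x axis), 1 library per point. Open circles on grey are 16 h and 18 h, and the dotted line separates the first day (0 to 22 h) from the second (24 to 46 h). The maximum of CCNE2 was 38.9 FPKM (2 h) and that of CCNB1 237 FPKM (22 h), and the swings were smaller on the second day.

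The E-type cyclins, which activate CDK2, were highest early. CCNE2 (ENSG00000175305) passed through 21.05, 38.9, 33.8 and 24.01 FPKM over the first 6 h, and reached its lowest value of 13.5 at 14 h. It had 27.1 FPKM at 22 h and 30.9 at 26 h, and then 18.1 to 20.6 from 30 h to 46 h. A second maximum was thus seen 24 h after the first, at a lower level, and none was seen near the end of the course. CCNE1 (ENSG00000105173) started with 29.8 FPKM and reached 41.8 at 6 h, and between 8 h and 22 h it stayed between 24.2 and 33.0. It returned to 41.6 FPKM at 26 h and stayed at 30.5 or above until 46 h. The high value at 6 h and that of 40.8 at 32 h are single libraries, and both libraries were treated as mildly irregular.

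The D-type cyclins, partners of CDK4 and CDK6, differed from each other. CCND3 (ENSG00000112576) went from 92.5 FPKM in the first library through 94.9 and 128 to its highest value, 174, at 6 h. From 145 at 8 h it came to 123 at 14 h. The next libraries gave 68.3 (16 h) and 56.5 (18 h), and the one at 20 h gave 116 again. Outside 16 h and 18 h every value lay between 92.5 and 174 FPKM, and on the second day between 119 and 155. CCND2 (ENSG00000118971) was lowest at 4 h with 20.7 FPKM and highest at 46 h with 42.9. Its values at 22 h (41.9), 28 h (40.8) and 30 h (40.5) stood above those of the neighbouring libraries at 20 h (29.6), 24 h (27.4), 26 h (29.9) and 32 h (31.4). Their share in its pattern was not tested.

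The later cyclins had their lowest values within the first 8 h. CCNA2 (ENSG00000145386), the partner of CDK2 and CDK1, started with 109.5 FPKM, was lowest at 4 h (75.9) and had returned to 113 by 14 h. The libraries of 16 h and 18 h gave 169 and 186, and those of 20 h and 22 h gave 127 and 131. From 24 h on it lay between 103 and 116 FPKM. CCNB1 (ENSG00000134057), the main mitotic partner of CDK1, started with 168 FPKM and had only 65.03 and 66.7 at 4 h and 6 h. It then passed 124 (10 h) and 153 (14 h) to 235 and 237 FPKM in the last libraries of the first day. On the second day it lay between 138 (32 h) and 199.5 (36 h), and ended with 138. CCNB2 (ENSG00000157456), the second B-type cyclin, was highest in the first library, with 89.4 FPKM, was lowest at 6 h (42.1) and had 81.2 at 18 h. It lay between 58.6 and 73.6 on the second day. CCNF (ENSG00000162063) was lowest at 2 h with 12.3 FPKM. It gave like maxima on both days, 28.1 (22 h) and 28.2 (34 h), and 19 FPKM in the last library. CCNA2, CCNB1 and CCNB2 thus began above the trough that they reached at 4 h to 6 h, whereas CCNF started near its lowest level.

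Order in time was tested by the JTK statistic, the largest rank agreement with a 24 h cosine over 12 phases. Its permutation p compares the observed course with random orderings of the time points. A gradual trend, or correlation between neighbouring time points, can therefore also make this p small. A call by JTK alone thus does not show a 24 h cycle. For all 12285 genes together, these p-values were corrected by the Benjamini-Hochberg method. At an adjusted p of 0.05 or below 3 of 8 cyclins were called, against 13% of all genes. CCNE2 had an adjusted permutation p of 0.00573 and a best phase of 2 h, and it was called under 9 of 10 alternatives, the exception being a period of 28 h (adjusted permutation p = 0.0643). CCND3 (8 h) and CCNB2 (20 h) both had 0.0491, just inside the threshold. Without 16 h and 18 h these became 0.0706 and 0.0873, and without 6 h and 32 h 0.162 and 0.0664, so neither call was kept. CCNA2 had 0.0960 as deposited and was called after median centring (0.0392) and upper-quartile scaling (0.0179). CCNB1 (0.137), CCNE1 (0.150), CCND2 (0.253) and CCNF (0.388) were not called under any of the alternatives.

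A 24 h wave with a linear trend was then fitted to log2(FPKM + 1) of every gene by limma. Amplitude means peak to trough, on that log2 scale. The wave was called for 3 of 8 cyclins, against 11.6% of all genes. CCNE2 had the largest amplitude, 0.73 ± 0.14 (SE), which is 1.65-fold (limma, adjusted p = 0.0123). CCND3 had 0.66 ± 0.16 (adjusted p = 0.0318) and CCNE1 0.45 ± 0.10 (adjusted p = 0.0241). The median amplitude of all genes was 0.28. The amplitude of CCND3 was 0.36 without 16 h and 18 h, with an adjusted p of 0.0493, and its call was lost without 6 h and 32 h (0.0666). Without the linear term neither CCND3 (0.103) nor CCNE1 (0.106) was called, and with a period of 20 h neither CCNE1 (0.216) nor CCND3 (0.108) nor CCNE2 (0.0502).

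CCNA2 (0.48 ± 0.14, adjusted p = 0.0561) and CCNB2 (0.45 ± 0.13, adjusted p = 0.0603) were close to the threshold. CCNA2 was called after median centring (0.0351) and upper-quartile scaling (0.0299), but its amplitude was 0.20 without 16 h and 18 h, with an adjusted p of 0.345. CCNB2 was called under 2 of 11 alternatives, without the linear term (0.0475) and with a period of 20 h (0.0469). CCNB1 had an amplitude of 0.59 with a 95% interval of 0.15 to 1.03 (adjusted p = 0.139). CCND2 (0.23, interval -0.01 to 0.48) and CCNF (0.23, interval -0.04 to 0.50) had amplitudes whose intervals include 0. Residuals of neighbouring time points were correlated (0.13 to 0.67 for the cyclins, median 0.15 for all genes), which makes p-values and SE of these fits too small.

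The fitted peaks fell in the order CCNE2 (1.79 ± 0.74 h, SE), CCNE1 (3.70 ± 0.82 h), CCND3 (6.78 ± 0.91 h), CCNF (13.5 ± 2.32 h), CCNA2 (17.2 ± 1.01 h), CCNB1 (17.9 ± 1.34 h), CCNB2 (19.8 ± 1.1 h) and CCND2 (20.8 ± 2.13 h). Between neighbours in this order, the gaps from CCNE1 to CCND3 (3.08 h) and from CCND3 to CCNF (6.76 h) exceeded 2 SE of the gap, and the others did not. Around the end of the 24 h cycle, the gap from CCND2 to CCNE2 (4.99 ± 2.25 h) also exceeded 2 SE. Without 16 h and 18 h this gap was 2.0 ± 2.7 h. The peaks of CCNF, CCNA2, CCNB1, CCNB2 and CCND2 rest on waves that were not called. Without 16 h and 18 h the gap of CCNF to CCND3 was 3.17 ± 3.28 h. The peak of CCND2 was then at 0.015 h, and at 23.3 h after PCHIP interpolation of these libraries. In the first day alone, fitted without a linear term, the order began with CCNE2 (1.98 ± 0.68 h), CCNE1 (2.80 ± 0.95 h) and CCND3 (7.11 ± 0.80 h). CCNF (16.9 ± 0.83 h), CCNA2 (17.5 ± 0.49 h), CCNB1 (18.4 ± 0.54 h), CCND2 (18.6 ± 0.78 h) and CCNB2 (20.1 ± 0.51 h) followed. In this fit CCNB2 peaked 2.56 ± 0.70 h after CCNA2 and 1.71 ± 0.74 h after CCNB1, both over 2 SE, and so they did without 16 h and 18 h (2.44 ± 0.78 h and 2.05 ± 0.70 h). The SE of a gap takes the time points, and the genes measured in the same libraries, as independent. A gap over 2 SE is therefore a description and not a test. The gaps between CCNE2 and CCNE1 and between CCNA2 and CCNB1 stayed below 2 SE. CCND3, a G1 cyclin by its textbook role, was thus later than both E-type genes. Without 16 h and 18 h its peak over the whole course was at 8.52 h.

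**Figure D2:**
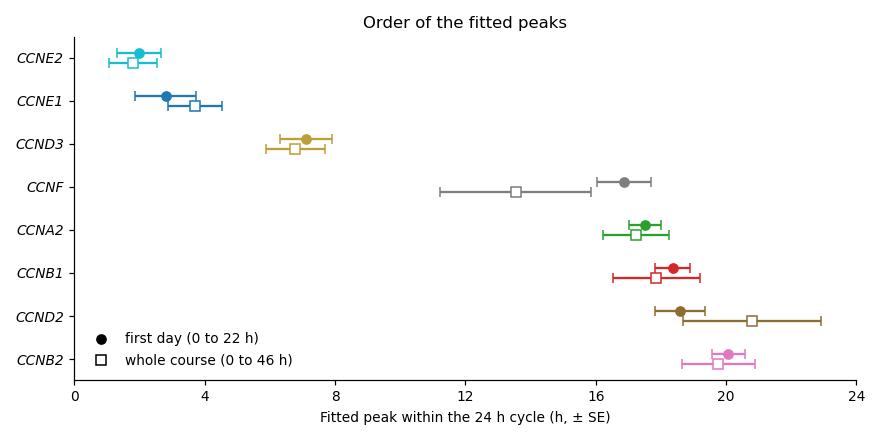
Fitted peak of each cyclin within a 24 h cycle (x axis, h, with SE) in the first day alone (filled circles) and over the whole course (open squares). CCNE2, CCNE1 and CCND3 peaked before 8 h, and in the first day the other 5 peaked between 16.9 h and 20.1 h.

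All 8 cyclins had a smaller amplitude on the second day than on the first, as did 79.9% of all genes. The difference of the wave between days, fitted without a linear term, was called for 3 of 8 cyclins, against 5.10% of all genes. CCNB1 had an amplitude of 1.47 ± 0.21 on the first day, which is 2.76-fold, and 0.30 ± 0.21 on the second (limma, adjusted p = 0.0247). CCNA2 went from 0.92 ± 0.12 to 0.06 ± 0.12 (adjusted p = 0.0113) and CCNB2 from 0.91 ± 0.12 to 0.11 ± 0.12 (adjusted p = 0.0196). Without 16 h and 18 h all 3 stayed called (0.00716, 0.0227 and 0.0226), and the first-day amplitude of CCNA2 was then 0.65 ± 0.11 and that of CCNB1 1.84 ± 0.22. The call of CCNB1 was lost after upper-quartile scaling (0.0638), and all 3 were lost with a period of 20 h.

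Among the other 5, CCNF had 0.72 ± 0.16 on the first day and 0.34 ± 0.16 on the second (adjusted p = 0.0569), and CCND2 0.74 ± 0.15 and 0.12 ± 0.15 (adjusted p = 0.0669). CCNF was called under 4 of 10 alternatives, among them that without 6 h and 32 h (0.0409). CCND3 had 0.93 ± 0.19 and 0.12 ± 0.19 (adjusted p = 0.123). The E-type genes had the highest adjusted p-values, with 1.0 ± 0.18 and 0.46 ± 0.18 for CCNE2 (0.268) and 0.49 ± 0.12 and 0.19 ± 0.12 for CCNE1 (0.350). In FPKM, the highest value of the day exceeded the lowest 3.64-fold on the first and 1.45-fold on the second for CCNB1, 2.45-fold and 1.13-fold for CCNA2, and 2.88-fold and 1.71-fold for CCNE2. In bulk RNA, loss of synchrony between cells and a lower amplitude in every cell cannot be told apart, nor fewer cells in a phase from less RNA per cell.

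**Figure D3:**
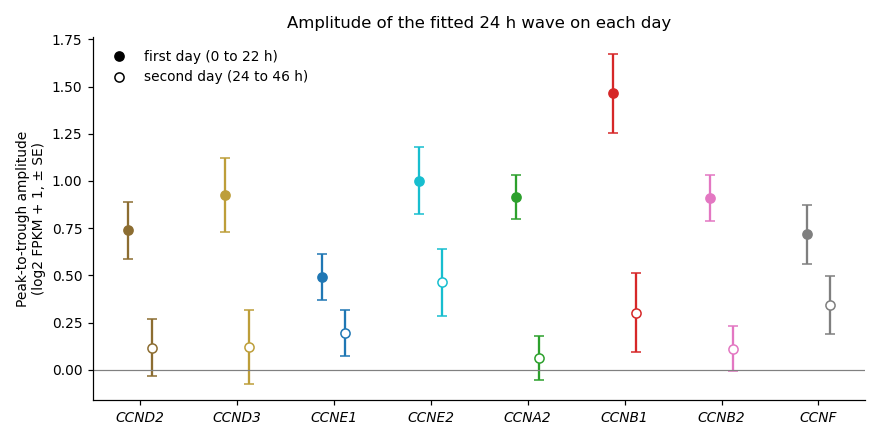
Peak-to-trough amplitude of the fitted 24 h wave (y axis, log2 of FPKM + 1, with SE) for each cyclin on the first day (filled circles) and the second (open circles). All 8 were smaller on the second day, and CCNB1 went from 1.47 to 0.30.

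A linear trend over the 46 h was called as risen for 3 of 8 cyclins, against 13.5% of all genes, and as fallen for none, against 8.83%. The fitted line rose by 0.55 ± 0.17 on the log2 scale, or 1.46-fold, for CCNF (limma, adjusted p = 0.0217). It rose by 0.52 ± 0.16 for CCND2 (adjusted p = 0.0185) and by 0.36 ± 0.12 for CCNE1 (adjusted p = 0.0385). CCNF and CCND2 were called under all 10 alternatives, and CCNE1 was lost after median centring (0.0550) and with a period of 20 h (0.404). A fitted line does not show the shape of a course. CCNF went from 12.3 FPKM at 2 h to 28.1 at 22 h, and had 23.3 at 24 h and 28.2 at 34 h. From there it fell to 19 FPKM at 46 h, near the 18.9 of 8 h. CCNE1 had 29.8 FPKM at 0 h and 30.5 at 46 h. Among the cyclins, residuals of neighbouring time points were most correlated in CCNF (0.67), which makes its p-value too small. CCNB1 had a slope of 0.59 ± 0.26 (adjusted p = 0.116), CCND3 of 0.48 ± 0.20 (0.0807), and CCNB2, CCNE2 and CCNA2 of 0.08, -0.03 and -0.08.

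Ratios of 2 cyclins within a library do not depend on its scaling. CCNE2 relative to CCNB1, the early against the late gene, was 0.519 at 4 h and 0.0742 at 20 h, a 7.0-fold range. It reached 0.209 at 26 h and 0.0967 at 36 h on the second day, a 2.16-fold range. CCNA2 exceeded CCNB1 in 4 libraries (4 h, 6 h, 16 h and 18 h), most at 6 h with a ratio of 1.37, and was lowest against it at 20 h (0.540). CCNB1 relative to CCNB2 was 1.21 at 2 h and 3.21 at 22 h. CCNE1 and CCNE2 were at a like level at 2 h (0.991), and CCNE1 was 2.25 times CCNE2 at 32 h. CCND2 relative to CCND3 was 0.134 at 6 h and 0.686 at 18 h, but at most 0.393 (22 h) without 16 h and 18 h.

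**Figure D4:**
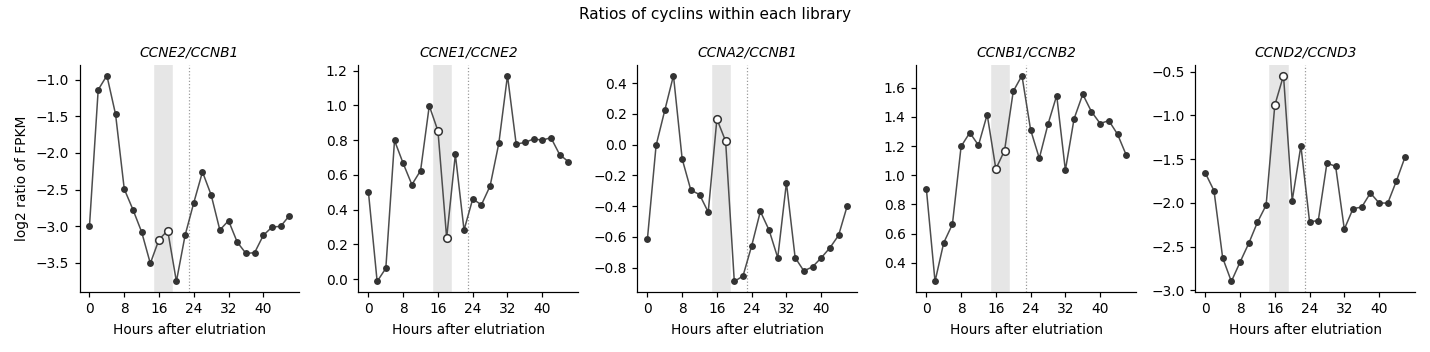
log2 ratio of 5 pairs of cyclins within each library (y axes, each panel with its own range) against hours after elutriation, with 16 h and 18 h as open circles on grey and the start of the second day dotted. CCNE2/CCNB1 spanned a 7.0-fold range between 4 h and 20 h, and 2.16-fold on the second day.

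At 16 h and 18 h, the named STRIPE time points, each cyclin was measured against a line drawn through its flanks (14 h and 20 h), and this deviation was set beside that of 16 other consecutive pairs. CCND3 lay below its flanks by -0.93 on the log2 scale, outside a range of -0.28 to 0.34. CCNA2 lay above by 0.56, outside -0.31 to 0.10. CCNB2 lay above by 0.19, against at most 0.12, but within its range after median centring (0.08) and upper-quartile scaling, where it was -0.04. The other 5 were within their ranges as deposited, CCND2 at 0.33, CCNE2 at 0.30, CCNF at 0.01, CCNE1 at 0.00 and CCNB1 at -0.20. Of all genes, 43.6% lay above and 28% below their own range in these libraries, and 25.3% deviated further upwards than CCNA2 and 46.9% further than CCNB2. The median of all genes was 0.14, and 0.02 and -0.06 after these scalings. Under upper-quartile scaling CCNE1 (-0.23) and CCNF (-0.21) fell below their ranges. The directions of CCND3 and CCNA2 were kept by both.

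Deviation at these time points moved with the GC content of the transcript. Its median was -0.49 among the genes above the upper quartile of GC and 0.53 among those below the lower quartile. CCND3 has 56.2% GC, just under the upper quartile of 56.4%, and CCNA2 42.1%, just over the lower quartile of 41.9%. CCNF at 57.6% and CCNE2 at 36.9% lie beyond these quartiles and deviated by 0.01 and 0.30. The highest FPKM of CCNA2 and the lowest of CCND3 were both at 18 h. Without these libraries CCNA2 was highest on the first day at 22 h (131 FPKM). The part of GC content in these deviations was not tested.

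**Figure D5:**
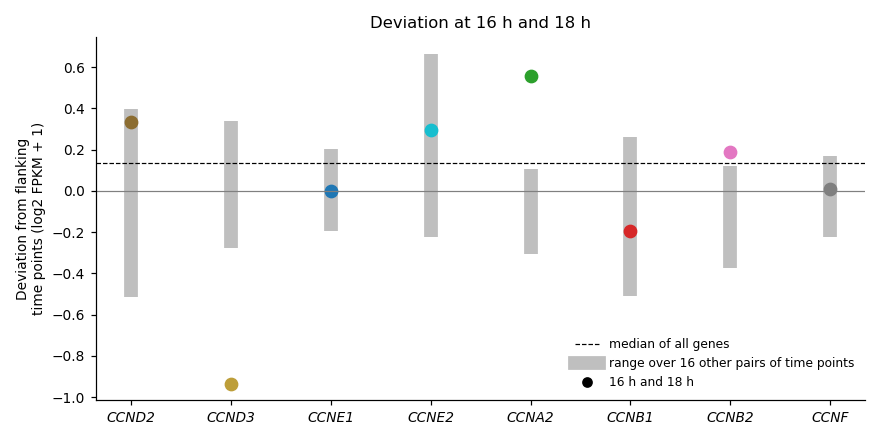
Deviation of the 16 h and 18 h libraries (mean of both, points) from a line through 14 h and 20 h (y axis, log2 of FPKM + 1) for each cyclin, with the range over 16 other pairs of time points (grey bars) and the median of all genes (dashed, 0.14). CCND3 (-0.93) lay below its range, and CCNA2 (0.56) and CCNB2 (0.19) above theirs.

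The genes most like each cyclin over the 24 time points were taken by Pearson r of log2(FPKM + 1) among 7140 genes with a symbol and a mean of at least 10 FPKM. All libraries are shared, so r is a description. CCNE2 was most like CDC6 (r = 0.894), which loads the replicative helicase, followed by the helicase subunit MCM6 (0.798) and FGD5-AS1 (0.796). CCNB1 was most like KIF20A (0.927), a kinesin of cytokinesis, G2E3 (0.923) and PSRC1 (0.894). CCNB2 was most like the checkpoint kinase BUB1 (0.876) and the spindle protein gene DLGAP5 (0.863). CCNF was most like the mitotic genes CDCA8 (0.924), AURKA (0.924) and RACGAP1 (0.914).

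CCNA2 was most like SGO2 (0.968), which protects centromeric cohesion, LIN28B (0.967) and SCLT1 (0.964), all highest at 18 h, and these r were 0.933, 0.914 and 0.911 without 16 h and 18 h. CCND3 was most like RHOG (0.968), AARS2 (0.950) and LYL1 (0.941), of which the latter 2 had 0.831 and 0.801 without them. CCND2 was most like MON1B (0.919), SLC2A3 (0.882) and ZNF121 (0.881), and CCNE1 like SFXN5 (0.833), DLST (0.802) and TPM4 (0.789). Among the cyclins themselves, CCNA2 and CCNB1 had r = 0.640, and 0.902 without 16 h and 18 h. CCNB1 and CCNF had 0.753, CCNB1 and CCNB2 0.746 and CCNE1 and CCNE2 0.629. CCND2 and CCND3 had -0.416.

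Of 74 listed genes that bind, modify, degrade or transcribe cyclins, or are other cyclins, 64 were tested. The 24 h wave was called for 7 (11.6% of all genes) and order in time by JTK for 17 (13% of all genes). Among 9 CDKs and their binding partners 0 were called by the limma fit and 3 by JTK (CDK1, CDK6 and CCNH). Among 5 phosphatases and kinases that set CDK activity, 1 was called by both. This was PKMYT1, an inhibitory kinase of CDK1, with an amplitude of 0.88 ± 0.20, a peak at 5.64 h, 133 FPKM at 6 h and 29.7 at 18 h. Its amplitude was 0.43 ± 0.11 without 16 h and 18 h. Among 6 CDK inhibitors 0 were called by either test. A linear trend was called as risen for CDKN1A, CDKN1C and CDKN2D and as fallen for CDKN2C. Of all 64 listed genes tested, 8 were called as risen and 5 as fallen, against 13.5% and 8.83% of all genes. Among 9 parts of the cyclin-degrading ligases, 0 were called by either test.

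Among 22 transcription factors of cyclin genes, 3 were called by the fit (11.6% of all genes) and 7 by JTK (13% of all genes). E2F1 had an amplitude of 1.13 ± 0.28 with a peak at 3.71 h, and E2F2 of 0.70 ± 0.12 at 2.60 h, both near the E-type cyclins. Without 16 h and 18 h the amplitude was 0.54 ± 0.15 for E2F1 (adjusted p = 0.0493) and 0.52 ± 0.08 for E2F2. E2F4, which acts mainly as a repressor, had 0.45 ± 0.10 at 7.04 h, and 0.31 ± 0.09 without 16 h and 18 h. All 3 were lowest at 18 h. Among 13 other cyclins, 3 were called by the fit (11.6% of all genes). CCND1, the third D-type cyclin, had 1.19 FPKM at 4 h and 6.39 at 38 h, far below CCND2 and CCND3, and rose by 1.28 on the log2 scale over the course (adjusted p = 3.06e-07). CCNC, of the Mediator kinase module, had an amplitude of 0.32 ± 0.07 with a peak at 18.6 h, and CCNG1, a target of p53, 0.46 ± 0.12 at 20.5 h. Both were highest at 18 h.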

How the data were processed

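Total RNA of 24 K562 samples, 1 per time point, was sequenced. The authors aligned reads with STAR to GRCh37 and deposited FPKM values made with Cufflinks2 and Cuffnorm, with other tool versions not given in the sources used here. They also deposited a cleaned table, in which the score of each gene is its quantile normalized Z-score, and which served only as an alternative for JTK. Samples and columns were matched by time in the labels.

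FPKM values were used as deposited. JTK (numpy 2.4.6) used 100000 random orderings of the time points. The harmonic fit (R 4.3.3, limma 3.58.1) took log2(FPKM + 1), which understates changes of low genes, over the 12253 genes whose mean reached 1 FPKM, with a linear term and a 24 h cosine and sine. The day test was a separate fit with a level, cosine and sine for each day (0 to 22 h and 24 to 46 h) and no linear term. Amplitudes and peaks of a single day come from it, so a trend within a day was not removed from them. All p-values were Benjamini-Hochberg adjusted over all genes tested, and a call means 0.05 or below. With 1 sample per time point, p-values rest on the scatter around the fit. Both procedures were tried on simulated data with independent noise at each time point. Those data held no shifts of whole libraries and no correlation between neighbouring time points, so they cannot show how the tests behave under these. GC content came from GENCODE 29 and upstream sequences from RefSeq (GRCh38.p14), and no coordinates of the files' build are given.

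The members, gene lists and tests were chosen with earlier results of these data known. Genes were named by a rule: the members, up to 3 genes per list called by both tests with the largest amplitude, and the 3 genes most like each member. Others were chosen after their values were seen. A marker and a gene that the rule named are not reported here. Alternatives were leaving out 16 h and 18 h or 6 h and 32 h, upper-quartile scaling, median centring, replacement of 16 h and 18 h by PCHIP interpolation, periods of 20 h and 28 h, filters on mean FPKM, a pseudocount of 0.1, no linear term and the cleaned table.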

Additional observations from a re-analysis of the deposited data

Results flagged for a closer look

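For 15 of the 72 members and listed genes tested (5.10% of all genes) the test of the difference itself (limma, adjusted over all genes) found that the 24 h wave differed between the first and the second day. Among the members these were CCNA2 (adjusted p = 0.0113), CCNB2 (0.0196) and CCNB1 (0.0247). Among the listed partners and regulators, those with cell-cycle kinase roles were CDC25C (0.0059), CKS2 (0.00834), CDC25B (0.0109), CCNH (0.0297), CDK7 (0.0305), PKMYT1 (0.0382) and CDK6 (0.0462). The CDK inhibitor CDKN1A had 0.0207 and the ligase parts CUL1 and CDC20 had 0.0341 and 0.0471. The transcription factors E2F1 and E2F2 had 0.0217 and 0.032. With all libraries the amplitude of each of the 15 was smaller on the second day, as in 93.4% of all genes called by this test. Without 16 h and 18 h the amplitude of CDKN1A was 0.43 on the first day and 0.48 on the second, and it stayed called (0.0417). CDC25C, a phosphatase that activates CDK1, went from 1.23 ± 0.13 to 0.10 ± 0.13 on the log2 scale, and E2F1 from 1.95 ± 0.26 to 0.46 ± 0.26. The first-day amplitude of E2F1 was 1.21 ± 0.19 without 16 h and 18 h. Without 16 h and 18 h, CDK6 (0.0954), CUL1 (0.0802), E2F2 (0.0737) and CCNH (0.0531) were no longer called. No cause of these differences was tested.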

How the results depend on the processing

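Leaving out 16 h and 18 h, leaving out 6 h and 32 h, or using the cleaned table each left 1 of 8 members called by JTK (CCNE2), against 3, and a period of 28 h left 0. Of all 12285 genes, JTK called 1602 as deposited, 1808 without 16 h and 18 h and 1368 without 6 h and 32 h. It called 1425 in the cleaned table and 384 at 28 h. With a period of 20 h all 3 members with a wave lost the call and another, CCNB2, was called, so that the count was 1, and the count with a day difference was 0, against 3. At that period the wave was called for 157 of all 12253 genes, against 1419, and the day difference for 39, against 625. The count of listed genes with a wave, 7 of 64, was recomputed after the data were seen. It became 12 without 16 h and 18 h, 19 after PCHIP, 13 after upper-quartile scaling, 11 after median centring, 4 at 20 h and 1 at 28 h. Of all 12253 genes the wave was called for 1736 without 16 h and 18 h, 3248 after PCHIP and 1607 after upper-quartile scaling. After median centring 1548 were called, and at 28 h 384. The other 38 of 44 planned counts, and 4 of 10 added ones, stayed within 1.5 times. Uncalled slopes turned sign for CCNE2 without 16 h and 18 h (adjusted p = 0.986), without 6 h and 32 h (0.968), after upper-quartile scaling (0.903) and PCHIP (0.718), for CCNA2 without 16 h and 18 h (0.46), after PCHIP (0.533) and at 20 h (0.667), and for CCNB2 without 6 h and 32 h (0.937). The deviation of CCNB2 at 16 h and 18 h turned to -0.043 under upper-quartile scaling. The causes were not tested. No paired analysis was possible because each time point had 1 sample. With no replicates and unknown depth, the error of a single FPKM value cannot be given, and 46 h of sampling hold only a pair of 24 h cycles.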
